A study of Mus musculus with 24 samples.

Results

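P19 mouse embryonal carcinoma cells lacking the retinoic acid receptor RARα, written Rara(-/-), were compared with wild-type (WT) P19 cells after the same course of all-trans retinoic acid (ATRA). Both cultures received 1 μM ATRA for 4 days and then 6 days in Neurobasal medium with N2 and B27 supplements free of vitamin A, and RNA was taken at day 10. Each table gives log2 fold changes against 1 common library, WT cells in ethanol (the vehicle) at day 2, for genes past an unadjusted p-value of 0.01. Genes were called kept where both tables listed them in the same direction, lost where the WT table alone did, and gained where the Rara(-/-) table alone did. These rules placed 732 genes, of 1753 that appear in at least 1 of the 23 tables of the series. The series holds 24 samples with 1 library per condition, so no comparison has a replicate check. Rara had been disrupted by gene editing with selection for puromycin resistance. Whether the line is 1 clone was not given in the sources used here, and no vehicle-treated library of the line was analysed here. A property of the line and a response of the line to ATRA therefore cannot be told apart. The same holds for ligand, elapsed time and medium, since the reference is an ethanol culture taken 8 days earlier.

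ATRA is the ligand of 3 related nuclear receptors, RARα, RARβ and RARγ, which bind DNA as heterodimers with RXR receptors and switch from repression to activation of their target genes on ligand binding. In P19 cells, which resemble cells of the early embryo, ATRA shuts down the pluripotency programme and drives neural differentiation. It also induces Hox genes, which set position along the body axis. Under other culture conditions the same cells can form mesodermal derivatives. The question put to these libraries is which of the ATRA-responsive genes still respond when RARα is missing.

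Rara, Rarb and Rarg were listed in 0 of the 23 tables. The deletion could therefore not be checked from the deposited values, and the mutant is named here by its label. These tables hold no check of the WT genotype either. As a sign of neural differentiation, Tubb3, a neuronal tubulin, was listed at a log2 fold change of 4.87 in WT cells with ATRA, and Map2, a dendritic microtubule-binding protein, at 5.82. Neither gene was listed in Rara(-/-) cells with ATRA, although Map2 was listed in Rara(-/-) cells with BMS641 plus BMS961, agonists of RARβ and RARγ, at 3.69. The WT value of Tubb3 lay near the smallest listed WT change of 4.73. Tubb3 was also not listed at day 10 in WT cells with the RARα agonist BMS753 or in Rarg(-/-) cells with ATRA. By TUBB3 and MAP2 immunostaining, the paper reports mature neurons in Rara(-/-) cells with ATRA. By RT-qPCR it also reports high RNA levels in these cells, among them Tubb3 and Gad67, the product of Gad1. The missing listing of Tubb3 here is therefore not a lack of its RNA. In RNA from whole cultures, fewer cells of a type and less RNA per cell cannot be told apart.

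Of the genes listed with ATRA in WT cells, a larger share of the down-regulated than of the up-regulated ones was also listed in Rara(-/-) cells. With ATRA, 395 genes were up-regulated in WT cells (22.5% of the 1753) and 333 in Rara(-/-) cells (19%). Of these, 218 were kept, which is 55.2% of the WT list and 65.5% of the Rara(-/-) list, while 177 were lost and 115 were gained. With a p-value limit of 0.001 in both tables the kept share of the WT list was 37.2% (35 of 94), and with that limit in the WT table only it was 80.9% (76 of 94). Some kept genes also rose without ATRA. Leaving out genes listed up in WT ethanol cells at day 10, the kept share was 50.4% (172 of 341). On the down-regulated side 151 genes were listed in WT cells (8.61%) and 183 in Rara(-/-) cells (10.4%). There, 112 genes were kept (74.2% of the WT list and 61.2% of the Rara(-/-) list), 39 were lost and 71 were gained. Leaving out genes listed down in WT ethanol cells at day 10, the kept share of the WT list was 70.0% (77 of 110). Genes listed up in one table and down in the other numbered 0.

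**Figure D1:**
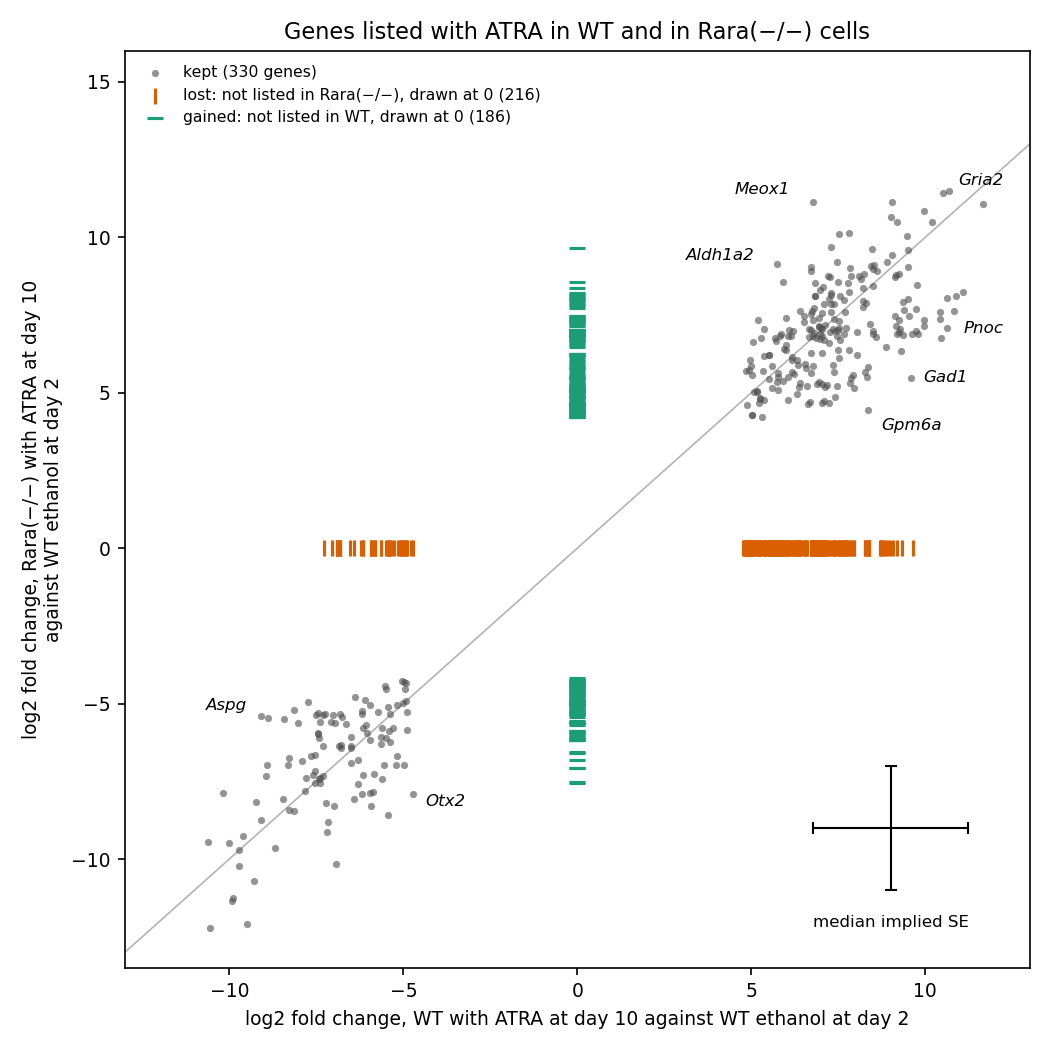
Log2 fold change of each listed gene in WT cells (horizontal axis) and Rara(-/-) cells (vertical axis) with ATRA at day 10, both against WT ethanol at day 2. Grey points are the 330 kept genes, orange ticks the 216 lost genes and green ticks the 186 gained genes, which have no value in the other table and are drawn at 0; the cross shows the median implied standard error of each table, and the grey line marks equal values.

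Absence from a table is not absence of a response. The standard error that each deposited p-value implies had a median of 2.22 on the log2 scale in WT cells and 2.00 in Rara(-/-) cells. The smallest standard errors were 1.83 and 1.62, and the smallest listed changes 4.73 and 4.17. Kept genes carried larger WT values than lost ones, with medians of 7.23 and 6.60 among up-regulated genes and -6.89 and -5.64 among down-regulated genes. When the up-regulated WT genes were ranked by size into 4 equal bins, 38.4% of the lowest bin were kept, then 48.5%, 56.1% and 77.8% of the highest. Among down-regulated genes the shares ran from 52.6% through 68.4% and 75.7% to 100% (38 of 38). A gene with a log2 value over 6.95 would have been listed in Rara(-/-) cells even at the largest standard error seen in that table (2.70). By this reading 62 of the 177 lost up-regulated genes (35.0%), but 2 of the 39 lost down-regulated genes (5.13%), had a WT value that would have been listed at the same size in Rara(-/-) cells. The matching limit for gained genes in the WT table was 7.22, which 22 of 115 gained up-regulated genes (19.1%) and 2 of 71 gained down-regulated genes (2.82%) exceeded.

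Among the 218 kept up-regulated genes, the value in Rara(-/-) cells minus that in WT cells had a median of -0.23. The middle of the distribution, between the quartiles, ran from -1.42 to 0.70. In Rara(-/-) cells 124 genes (56.9%) had the lower value and 94 the higher one, and 119 genes (54.6%) differed by less than 1 in either direction. More genes lay below -2 (36) than above 2 (10). The direction of the median depended on the p-value limit: at 0.001 in both tables it was 0.28, and 45.7% of 35 kept genes were lower in Rara(-/-) cells. For the 112 kept down-regulated genes the median was 0.31, with 63 genes closer to 0 in Rara(-/-) cells and 49 farther from it. None of these differences can be separated from its error. The implied standard error of a difference, which counts the shared reference library in both terms and is therefore wide, had a median of 3.16 for up-regulated and 2.95 for down-regulated genes. Of the 330 kept genes, 9 differed by more than 1 such error and 0 by more than 2. The largest ratio was 1.40, for Gpm6a.

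**Figure D2:**
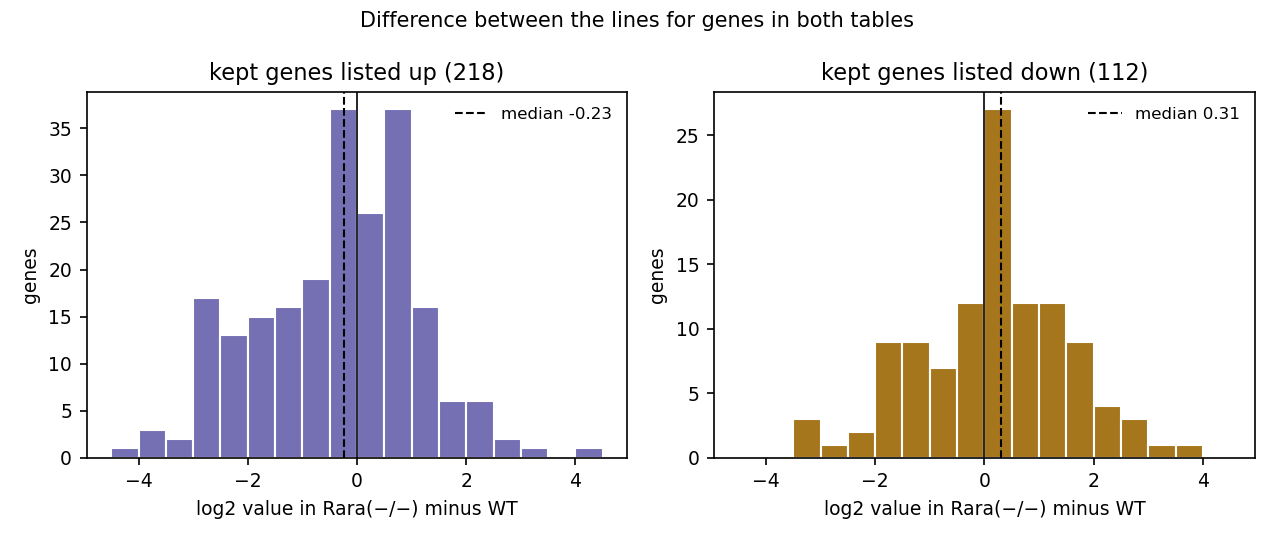
Number of kept genes by the log2 value in Rara(-/-) cells minus that in WT cells, in bins of 0.5, for genes listed up (left) and down (right). Dashed lines mark the medians of -0.23 and 0.31; on the left, 36 genes lie below -2 and 10 above 2.

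The kept genes with the largest WT values were mostly neuronal. Gria2, an AMPA-type glutamate receptor subunit, stood at 11.67 in WT and 11.07 in Rara(-/-) cells, a difference of -0.61. Actl6b, a subunit of the neuronal BAF chromatin remodelling complex, was listed at 11.07 in WT and 8.23 in Rara(-/-) cells. Lhx5, a LIM homeodomain factor of forebrain and spinal cord interneurons, went from 10.89 to 8.12, and Ttc9b from 10.81 to 7.63. Kctd12, an auxiliary subunit of GABA-B receptors, had 10.69 in WT and 11.48 in Rara(-/-) cells. Thus 3 of these 5 genes lay lower by more than 2 log2 units in the mutant, and Gria2 and Kctd12 lay within 1 unit.

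The most negative difference was that of Gad1, the glutamate decarboxylase that makes the transmitter GABA (mm9 chromosome 2, 70391129 to 70440071, plus strand). Gad1 was listed at 9.59 in WT and 5.48 in Rara(-/-) cells, a difference of -4.11 with an implied standard error of 3.26. Gpm6a, a membrane glycoprotein of neurites, followed with 8.36 and 4.46 (difference -3.90, standard error 2.78). Gbx2, a homeodomain factor of the anterior hindbrain, had 10.46 in WT and 6.77 in Rara(-/-) cells. Pnoc, the precursor of the neuropeptide nociceptin, had 10.62 and 7.07. All 5 genes of this end, Ttc9b included, were listed in both tables with WT values above 8.

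At the other end stood Meox1, a homeodomain factor of the somites (mm9 chromosome 11, 101738824 to 101755688, minus strand). It was listed at 6.78 in WT and 11.13 in Rara(-/-) cells, a difference of 4.36 with an implied standard error of 3.71. In WT cells with ATRA it had been listed at 11.90 on day 4, so the day 10 value in Rara(-/-) cells lay near the earlier WT value. Aldh1a2, the enzyme that makes retinoic acid from retinaldehyde in embryonic mesoderm, had 5.75 in WT and 9.13 in Rara(-/-) cells (difference 3.38, standard error 3.09). Foxd1, a forkhead factor of renal stroma and other mesenchyme, had 7.52 and 10.11, and Chodl, a membrane lectin, 5.91 and 8.55. Dlx6os1, a non-coding transcript that overlaps Dlx6 on the opposite strand, had 7.29 and 9.68; whether reads were counted by strand was not given in the sources used here, so its reads and those of Dlx6 may not be separable.

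The lost gene with the largest WT value was Lypd1, a GPI-anchored modulator of nicotinic acetylcholine receptors (mm9 chromosome 1, 127764199 to 127809678, minus strand), at 9.64. It was followed by Rgs8, a regulator of G-protein signalling, at 9.34, Syndig1l at 9.18 and Mlc1, a membrane protein of astrocytes, at 9.06. Fam181a at 8.90, Pcdh8, a protocadherin, at 8.83 and Hpcal4, a neuronal calcium sensor, at 8.77 came next among the genes named here. Each of these 7 values lies above the limit of 6.95. Lypd1 was also listed in WT ethanol cells at day 10, at 7.0. In Rara(-/-) cells with BMS641 plus BMS961, Mlc1 was listed at 8.92, Fam181a at 7.25 and Rgs8 at 6.65. Lypd1, Syndig1l, Pcdh8 and Hpcal4 were not listed there. A gene lost with ATRA was thus in some cases listed in the same line with other ligands.

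Gained genes with large values in Rara(-/-) cells included Serpinb7, a serine protease inhibitor, at 8.56, the tight junction protein Cldn1 at 8.37, Cdsn, an adhesion protein of cornified epithelium, at 8.21 and the cytokine Tnfsf15 at 8.17. Tcf21, a bHLH factor of visceral mesenchyme, stood at 8.12, the homeodomain factor Hlx at 8.08 and the aldehyde dehydrogenase Aldh1a7 at 8.02. All 7 exceeded the limit of 7.22, and 0 of them were listed in WT cells with ATRA at day 10.

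To show the sequence that lies before these genes, the 250 bases upstream of the annotated start are printed for Gad1, the kept gene with the most negative difference (chr2:70390879-70391128, plus strand), and Lypd1, the lost gene with the largest WT value (chr1:127809679-127809928, minus strand), both on mm9 and in the 5′ to 3′ direction of the gene. Capitals mark the hexamers that RAR and RXR bind as pairs, AGGTCA with its variants AGTTCA and GGGTCA and also GGTTCA, on either strand.
Gad1: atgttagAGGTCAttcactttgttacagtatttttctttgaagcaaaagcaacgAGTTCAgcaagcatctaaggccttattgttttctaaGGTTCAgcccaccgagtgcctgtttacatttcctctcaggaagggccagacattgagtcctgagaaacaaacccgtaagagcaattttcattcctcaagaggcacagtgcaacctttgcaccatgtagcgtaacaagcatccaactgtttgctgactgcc
Lypd1: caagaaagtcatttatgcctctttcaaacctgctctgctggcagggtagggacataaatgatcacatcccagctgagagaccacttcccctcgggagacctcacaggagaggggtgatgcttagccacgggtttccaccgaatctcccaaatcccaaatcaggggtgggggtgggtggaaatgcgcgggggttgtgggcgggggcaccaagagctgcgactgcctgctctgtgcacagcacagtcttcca

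The Gad1 window held 3 hexamers, all on the gene's own strand, and the Lypd1 window held 0. Over all 22367 protein-coding genes of the annotation, 36.1% of such windows held at least 1 of the 4 hexamers and 12.5% held AGGTCA. The corresponding shares for any hexamer were 26.9% of 212 kept, 26.0% of 169 lost and 28.3% of 113 gained up-regulated genes with a located start. For down-regulated genes they were 51.0% of 102 kept, 44.7% of 38 lost and 40.6% of 69 gained genes. For AGGTCA alone they were 5.19%, 8.88% and 7.08% of kept, lost and gained up-regulated genes, and 20.6%, 10.5% and 13% of down-regulated ones. Up-regulated genes of all 3 classes lay below the share of all genes by both counts. Down-regulated genes lay above it for any hexamer, but for AGGTCA the lost ones lay below it. Direct repeats of a hexamer spaced by 1, 2 or 5 bases, the classical retinoic acid response elements, were found before 0 genes of any class, against 0.152%, 0.103% and 0.0581% of all genes. These are matches of letters in a short window and not binding sites.

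By role, Hox genes were kept throughout. Of 23 Hox genes in any table, 11 were up-regulated in WT cells with ATRA. All 11 were kept, against 55.2% of all up-regulated WT genes. In the Rara(-/-) table Hoxc5 was gained at 4.66, and Hoxc13 was listed as down-regulated at -6.06. Within the Hoxa cluster, Hoxa2 stood at 7.26 in WT and 6.94 in Rara(-/-) cells, Hoxa3 at 7.02 and 7.57, and Hoxa7 at 9.23 and 8.82. Hoxb3 had 6.72 in WT and 8.93 in Rara(-/-) cells and Hoxb4 7.07 and 8.41, whereas Hoxb7 had 7.82 and 6.38, Hoxb8 9.13 and 7.47, and Hoxb9 6.04 and 5.49. The 3' Hoxb genes were therefore higher in the mutant and the more 5' ones lower, each by less than its implied standard error; the coordinates of Hoxb7 and Hoxb8 overlap in the annotation, so their reads may be shared. Hoxc6, Hoxc8 and Hoxc9 were each higher in Rara(-/-) cells, at 7.86, 9.19 and 8.11 against 7.29, 7.46 and 6.82.

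Genes of the retinoid pathway other than the receptors were few in the tables. Of 12 in any table, 4 were up-regulated in WT cells and 3 of them were kept (75.0%, against 55.2% of all up-regulated WT genes). The kept ones were Aldh1a2, and the orphan nuclear receptors Nr2f1 (5.09 in WT and 5.02 in Rara(-/-) cells) and Nr2f2 (7.22 and 8.01). Crabp1, a cytoplasmic retinoic acid-binding protein, was lost from a WT value of 5.21, which is below the limit of 6.95.

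The neural progenitor and proneural factors, a list that holds Notch pathway and patterning genes besides proneural factors, were mostly lost. Of 18 up-regulated in WT cells, 7 were kept (38.9%, against 55.2% of all up-regulated WT genes) and 11 were lost. At a p-value limit of 0.001 in both tables, the count kept was 0 of 4. Lost members included the bHLH factors Neurod1 (8.76), Bhlhe22 (7.84), Nhlh1 (6.83), Neurog2 (6.01) and Neurod2 (5.55), the paired-box factors Pax2 (6.97) and Pax6 (5.03), and the Notch ligands Dll4 (6.75) and Dll1 (4.98). Of these 9 values, those of Neurod1, Bhlhe22 and Pax2 lie above 6.95. Of the same 9 genes, only Neurod1 (7.04), Nhlh1 (5.57) and Dll1 (4.35) were listed in Rara(-/-) cells with BMS641 plus BMS961. The kept members had a median difference of -1.39, and 6 of 7 were lower in Rara(-/-) cells. The Notch effector Hes5 had 9.40 in WT and 7.66 in Rara(-/-) cells, and the bHLH factor Nhlh2 7.86 and 5.48. Irx3, which patterns the neural tube, was the exception with 5.33 and 5.69. Sox3 and Ptf1a were gained as down-regulated genes in Rara(-/-) cells, at -5.61 and -4.83.

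Homeodomain factors of neurons had 8 up-regulated members in WT cells, of which 4 were kept (50.0%, against 55.2% of all up-regulated WT genes) and 4 lost. The lost ones included Uncx (7.85), Pou3f2 (7.38) and Lhx1 (6.55). Besides Lhx5 and Gbx2, the kept ones were Lbx1, which specifies dorsal spinal interneurons, with 7.83 in WT and 5.32 in Rara(-/-) cells, and Dlx5, with 6.83 and 8.53. Dlx5 was the 1 kept member higher in the mutant, and 1 member was gained.

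Synaptic genes showed the lowest kept share of the lists with at least 10 up-regulated WT genes. Of 22 up-regulated in WT cells, 8 were kept (36.4%, against 55.2% of all up-regulated WT genes) and 14 were lost, and 1, the glycine receptor subunit Glrb, was gained at 4.50. The kept share moved to 12.5% (1 of 8) with a p-value limit of 0.001 in both tables and to 75.0% (6 of 8) with that limit in the WT table only. Of the GABAergic genes, Gad2 (6.93), the vesicular GABA transporter Slc32a1 (6.82) and the receptor subunits Gabra2 (7.51) and Gabrb2 (5.37) were lost, while Gad1 was kept at a lower value. Of the glutamatergic set, the receptor subunits Grin1 (7.16), Grin2b (6.86), Grik1 (6.05) and Gria1 (5.83) and the metabotropic receptor Grm7 (5.63) were lost. Among these lost GABAergic and glutamatergic genes, only Gabra2 (7.67) and Grin2b (4.81) were listed in Rara(-/-) cells with BMS641 plus BMS961. The vesicular glutamate transporter Slc17a6 was kept with 9.80 and 6.89. Gria2 remained the highest synaptic value in both tables. Of the 8 kept genes 7 were lower in Rara(-/-) cells, with a median difference of -1.87, and Cbln2, a synapse organiser, was higher at 9.06 against 8.45.

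The neuronal cytoskeleton and RNA-binding list was kept at about the share of all genes but at lower values. Of 16 genes up-regulated in WT cells, 9 were kept (56.2%, against 55.2% of all up-regulated WT genes). All 9 were lower in Rara(-/-) cells, against 56.9% of all kept up-regulated genes, with a median difference of -2.03. Dcx, a microtubule-binding protein of migrating neurons, had 8.35 in WT and 5.84 in Rara(-/-) cells, Mapt (tau) 8.05 and 6.21, the secretory granule protein Scg2 7.02 and 4.67, and Gap43, a growth cone protein, 6.30 and 4.96. Stmn4 (6.83), Scg3 (6.60), Elavl4 (6.31), Map2 (5.82), Rbfox1 (5.54), Dpysl3 (5.14) and Tubb3 (4.87) were lost, none from a value above 6.95. Of the list headed voltage-gated ion channels, 4 of 9 were kept (44.4%, against 55.2% of all up-regulated WT genes). The list is wider than its heading. Of its kept members Kcnc1 (9.35 and 6.85) is voltage-gated, while Kcnk3, Kcnj8 and Cacng4 are other channel or auxiliary subunit genes, as is the lost Kcnj9. The lost channels were the potassium channels Kcna2 (8.28), Kcna4 (7.02) and Kcnj9 (6.83) and the sodium channel subunits Scn3b (6.34) and Scn3a (5.26).

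**Figure D3:**
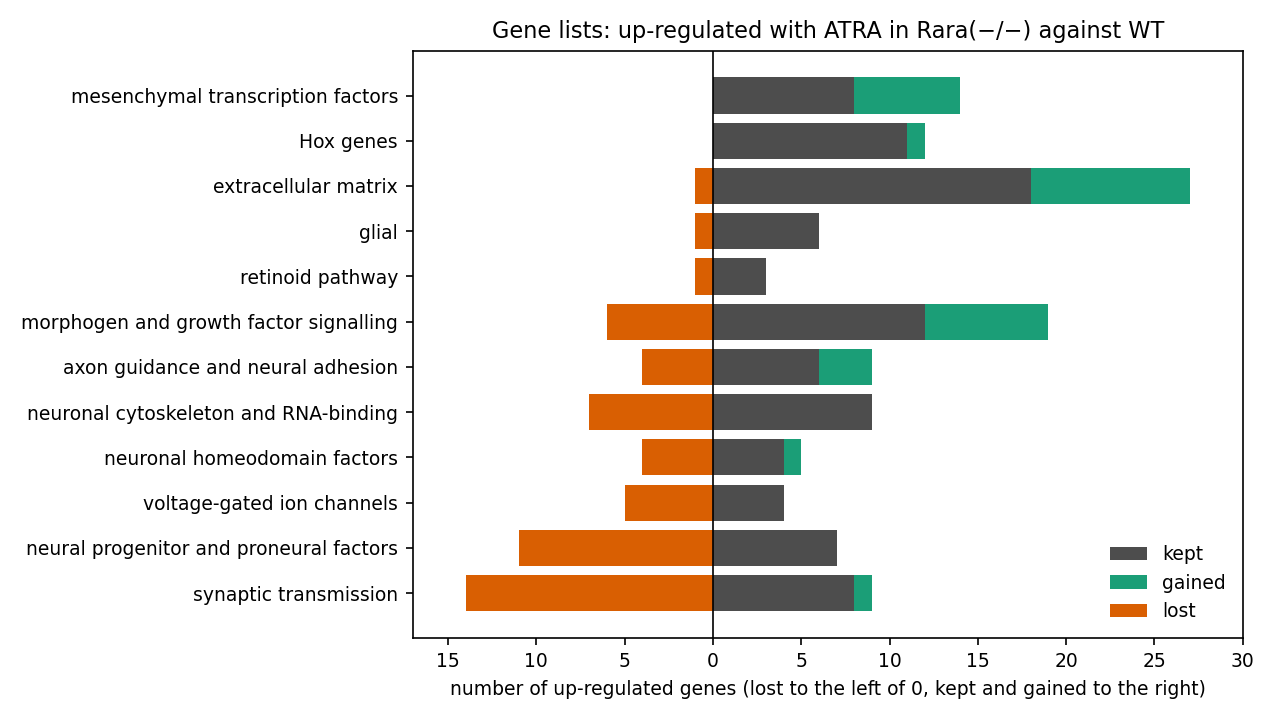
Number of up-regulated genes of each gene list that were kept (grey), gained (green) or lost (orange, drawn to the left of 0) in Rara(-/-) against WT cells with ATRA at day 10; lists are ordered by the share of WT genes kept. Synaptic genes (14 lost, 8 kept) stand at the bottom, and mesenchymal factors (0 lost, 8 kept, 6 gained) and Hox genes (0 lost, 11 kept, 1 gained) at the top.

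Mesenchymal transcription factors went the other way. All 8 that were up-regulated in WT cells were kept, against 55.2% of all up-regulated WT genes. All 8 had the higher value in Rara(-/-) cells (median difference 0.99). Of the 14 listed in Rara(-/-) cells 6 were gained, against 34.5% of all genes up-regulated there. Besides Meox1 and Foxd1, the kept ones included Tbx2 (9.95 in WT and 10.86 in Rara(-/-) cells), Osr1 (9.19 and 10.49), Tbx18 (6.80 and 7.74), Twist1 (6.76 and 6.84) and Prrx1 (5.85 and 6.89). The gained ones were Tcf21, the heart and limb factor Hand2 (7.47), Gata6 (7.46), Pitx1 (7.15), Foxc1 (6.19) and Mef2c (5.02). Of these 6, Tcf21, Hand2 and Gata6 exceeded the WT limit of 7.22.

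Extracellular matrix genes were also mostly kept. Of 19 up-regulated in WT cells 18 were kept (94.7%, against 55.2% of all up-regulated WT genes) and 1 was lost (Col15a1, 5.80). Of the 27 listed in Rara(-/-) cells 9 were gained, near the 34.5% of all genes up-regulated there. The kept genes had a median difference of 0.35. The fibrillar collagens Col3a1 (10.19 in WT and 10.50 in Rara(-/-) cells), Col1a2 (7.19 and 8.74) and Col1a1 (5.20 and 7.35) were among the kept ones, as was Mgp, an inhibitor of calcification (7.82 and 10.13). Mmp24, a metalloproteinase expressed in neurons, was the kept matrix-list gene with the most negative difference (8.27 and 5.66). Gained members included the proteoglycans Bgn (7.27) and Dcn (4.23), the integrin subunit Itga8 (6.54), Col8a2 (6.00) and the elastin gene Eln (4.65).

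Glial genes were kept in 6 of 7 cases (85.7%, against 55.2% of all up-regulated WT genes). The list's astrocyte gene Aldh1l1 was gained as a down-regulated gene in Rara(-/-) cells. Fabp7, a fatty acid-binding protein of radial glia, was lower in Rara(-/-) cells (10.42 and 7.36), while Pdgfra, which marks both oligodendrocyte precursors and mesenchyme, was higher (9.04 and 11.13), as was Sox9 (6.41 and 7.62). The glutamate transporter Slc1a2 was lost from 5.74. The morphogen and growth factor list, which holds ligands, receptors and inhibitors, was mixed. It had 12 of 18 kept (66.7%, against 55.2% of all up-regulated WT genes), 6 lost and 7 gained. Lost ones included Fgf9 (7.71), Wnt7b (7.49), Shh (6.85) and Wnt1 (5.86), and gained ones included Wnt11 (5.14), Wnt5a (5.10), Pdgfc (4.91) and Rspo3 (4.52). Axon guidance and adhesion genes divided into 6 kept, 4 lost and 3 gained. Of other lineages, 0 muscle genes were up-regulated in either table, the endoderm list had 2 gained genes (Gata6, and Foxa1 at 6.25) and the endothelial and blood list had 1 lost gene (Lmo2, 6.24). The part that the mesenchymal and endodermal genes play in the neuronal counts was not tested.

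The cell type marker lists used by the study were also counted. Of 1348 neuron markers, 330 were in any table, 129 were up-regulated in WT cells and 86 in Rara(-/-) cells, with 63 kept (48.8%, against 55.2% of all up-regulated WT genes), 66 lost and 23 gained. The kept share was 52.2% of 23 glutamatergic, 56.7% of 30 GABAergic and 57.4% of 47 dopaminergic markers. It was 50.0% of 24 astrocyte markers and 63.9% of 36 markers of oligodendrocyte precursors. The shares of these 6 marker lists thus lay around that of all genes. For the same sample the paper reports larger recovered shares of the neuron, dopaminergic and oligodendrocyte precursor markers seen in WT cells with ATRA. It counted genes by a log2 threshold of 2 and states no p-value limit for that count. The shares given here rest on a p-value limit of 0.01, so the 2 measures are not alike. The median difference of kept genes was -1.24 for glutamatergic markers, -0.03 for dopaminergic and 0.56 for GABAergic ones. The GABAergic marker list thus did not share the direction of Gad1, which it does not hold.

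On the down-regulated side, nearly all genes of the pluripotency list were kept. Of 20 such genes in any table, 19 were down-regulated in WT cells and 18 of these also in Rara(-/-) cells (94.7%, against 74.2% of all down-regulated WT genes), with a median difference of 0.40. Tdgf1, a co-receptor for Nodal, stood at -10.62 in WT and -9.44 in Rara(-/-) cells, Zscan10 at -10.19 and -7.89, Pou5f1, which encodes OCT4, at -9.88 and -11.24, Utf1 at -9.71 and -10.21, and Nanog at -6.16 and -7.30. Pou5f1-rs4, at -10.56 and -12.21, is a retrocopy whose reads may come from Pou5f1. Dppa4 was lost from -6.81, and Klf4 was gained as an up-regulated gene at 5.04. Otx2, a factor of the epiblast and forebrain, was listed at -4.73 in WT and -7.90 in Rara(-/-) cells, a difference of -3.18 with an implied standard error of 2.72.

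Outside that group, Mup6 (-6.94 and -10.15) and Myl3 (-5.45 and -8.57) were, with Otx2, the kept genes that lay farthest below their WT value. Aspg (-8.88 and -5.46), the serotonin receptor gene Htr1d (-8.44 and -5.48) and the tight junction gene Cldn3 (-8.13 and -5.22) lay farthest above it. The largest lost values were those of Scnn1a (-7.27), Slc39a4 (-7.05), H2-T3 (-6.92) and Tmem179 (-6.92). The largest gained ones were Prdm1 (-7.55), a factor of primordial germ cells, Trim54 (-7.52), Ildr1 (-7.08) and Ascl2 (-7.07). Some down-regulated values recurred from table to table: 21 of 112 kept genes (18.8%) had a WT value that recurred within 0.001 in another table, against 1 of 218 kept up-regulated genes (0.459%). Htr1d was at -8.44 in WT cells with ATRA, BMS753 and ethanol alike.

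The closest other tables at day 10 are ATRA in Rarb(-/-) and Rarg(-/-) cells, and BMS753, a RARα agonist given at 1 μM, in WT cells. All of them share the ethanol day 2 reference, so the values are set side by side and not correlated. Their up-regulated lists were of similar length, 359 genes in Rarb(-/-) cells (20.5% of 1753), 375 in Rarg(-/-) cells (21.4%) and 383 with BMS753 (21.8%), against 167 in WT ethanol cells at day 10 (9.53%). Of the 32 synaptic genes in any table, 22 were up-regulated in WT cells with ATRA, 9 in Rara(-/-), 6 in Rarb(-/-) and 16 in Rarg(-/-) cells, 15 with BMS753 and 0 in ethanol. For the 33 progenitor and proneural factors the counts in that order were 18, 7, 3, 10, 15 and 4. For the 24 mesenchymal factors they were 8, 14, 16, 13, 8 and 2, and for the 56 matrix genes 19, 27, 33, 28, 24 and 8. Fewer synaptic and proneural and more mesenchymal and matrix genes than in WT cells with ATRA were thus listed in each of the 3 mutant lines. WT cells with BMS753 shared the direction for synaptic (15), proneural (15) and matrix genes (24), but not for mesenchymal factors (8). In these lists the counts furthest from WT were those of Rarb(-/-) cells. Other neuronal lists did not all follow. The 330 neuron markers gave 129, 86, 88, 112, 110 and 18, and the 36 axon guidance and adhesion genes 10, 9, 11, 9, 8 and 1. Hox genes numbered 11, 12, 11, 12, 10 and 1. Whether any of these counts differs between lines was not tested, since each line is 1 library.

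**Figure D4:**
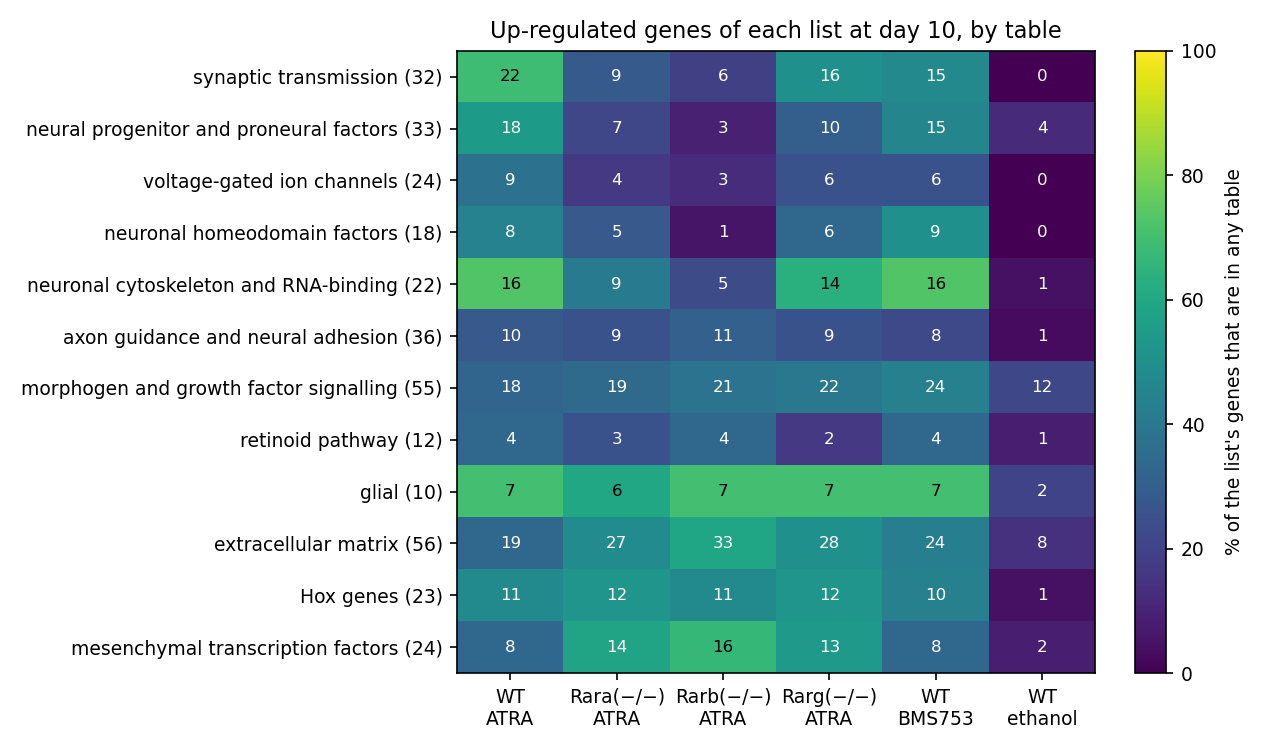
Number of up-regulated genes of each list (printed in the cells) in 6 tables at day 10. Colour gives that number as a percentage of the list's genes that appear in any table, whose count is in parentheses. Synaptic genes fall from 22 in WT cells with ATRA to 9 in Rara(-/-) and 6 in Rarb(-/-) cells, while mesenchymal factors go from 8 to 14 and 16.

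Single genes divided in the same tables. Gad1, at 9.59 in WT and 5.48 in Rara(-/-) cells, was not listed in Rarb(-/-) cells and stood at 7.59 in Rarg(-/-) cells and 7.63 with BMS753. Meox1 was at 9.62 in Rarb(-/-) and 8.38 in Rarg(-/-) cells and was not listed with BMS753. Aldh1a2 was at 8.43, 9.10 and 5.71 in those 3 tables, so the WT values with ATRA and BMS753 were the low ones. Tcf21, Hlx, Aldh1a7 and Tnfsf15, gained in Rara(-/-) cells, were also listed in both other mutant lines with ATRA, Tcf21 at 8.56 and 8.08. Cldn1 and Cdsn were listed in 0 of the 3 tables.

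Some genes lost in Rara(-/-) cells were listed in all 3 of these other tables. They included the potassium channel gene Kcna2, at 8.28 in WT cells with ATRA and 7.80, 7.54 and 6.93 in Rarb(-/-) cells, Rarg(-/-) cells and with BMS753. Fgf9 stood at 7.71 in WT cells and at 7.16, 7.97 and 7.38, and Ecrg4 at 7.53 and then 7.68, 5.51 and 9.99. Nrgn, a postsynaptic calmodulin-binding protein, had 5.92 and then 7.14, 7.04 and 5.84, and the synaptic vesicle calcium sensor Syt1 had 5.77 and then 4.83, 5.51 and 5.12. Kcna2, Fgf9 and Ecrg4 had WT values above the limit of 6.95, and Nrgn and Syt1 did not. Among these genes, only Ecrg4 was listed in Rara(-/-) cells with BMS641 plus BMS961, at 6.14. In the opposite case, 1 gene, Nmral1, was gained in Rara(-/-) cells with ATRA (-5.28) and listed in the other Rara(-/-) tables at day 10, at -6.81 with BMS961 and -4.67 with BMS961 plus BMS641, but in 0 day 10 tables of the other lines.

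**Figure D5:**
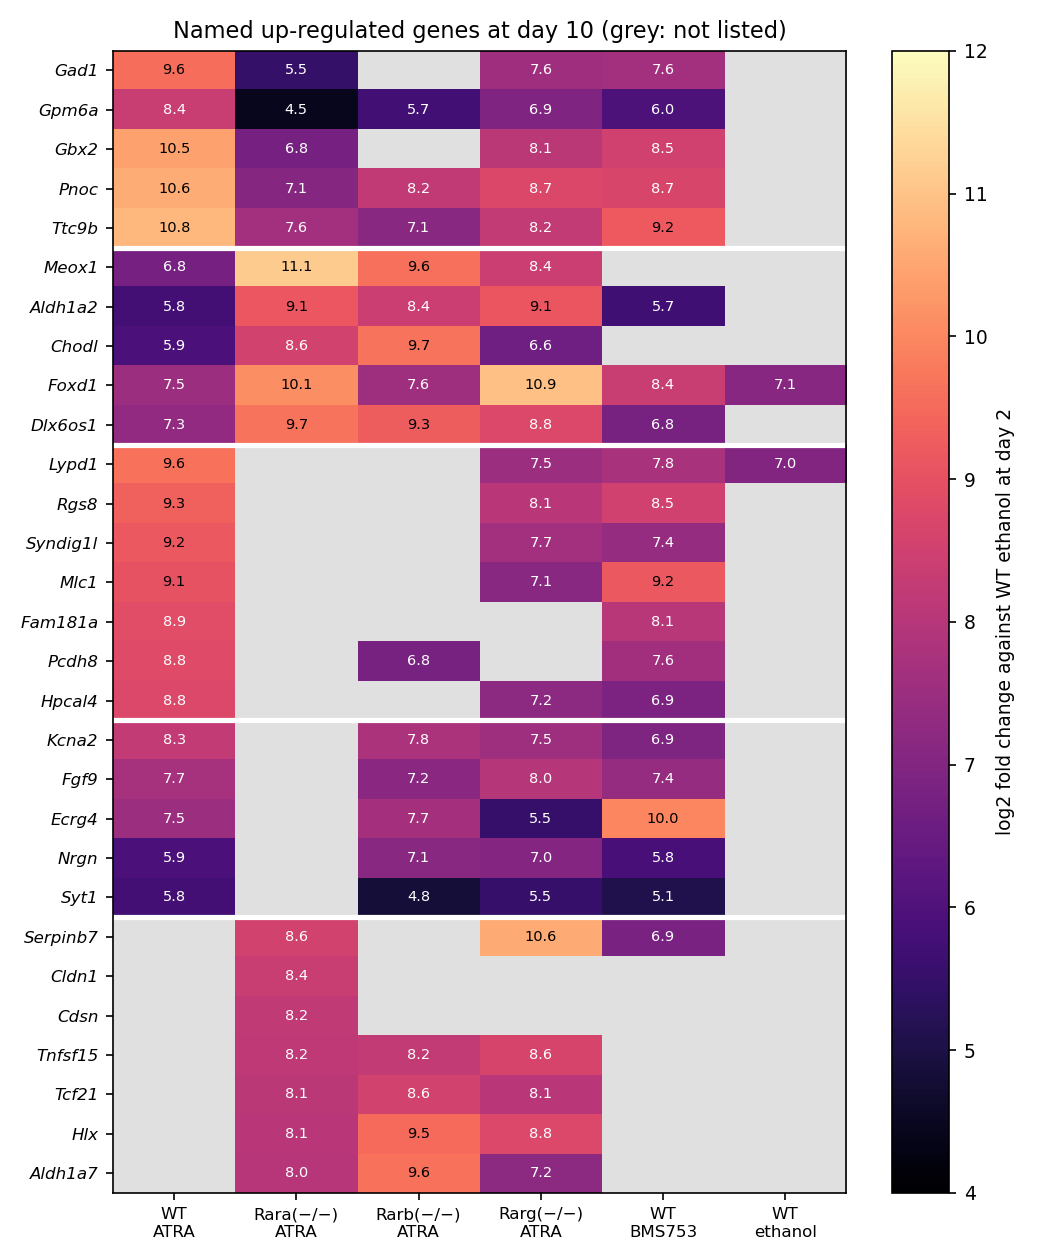
Log2 fold change against WT ethanol at day 2 of named up-regulated genes (rows) in 6 tables at day 10 (columns); grey cells are genes not listed there. From top to bottom, the blocks are kept genes lower in Rara(-/-) cells, kept genes higher there, 7 lost genes with large WT values, 5 lost genes listed in the 3 other tables, and 7 gained genes with large values; Gad1 goes from 9.59 to 5.48 and Meox1 from 6.78 to 11.13 between the first columns.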

How the data were processed

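RNA-seq of P19 cells was processed by the authors with Bowtie2 2.1.0 on mm9, featureCounts and DESeq2, as the submitters' processing notes and the methods list them. The authors deposited, per condition, the log2 fold change against WT ethanol at day 2 and its unadjusted p-value for genes past 0.01; 1 table also holds a standard error, unit score, as the authors deposited it. Counts and depth are unknown here, as is the number of genes tested, so no test was run, and the share of 1753 listed genes is the background. These columns are the authors' own comparison, and the comparison of the 2 tables rests on them. Implied standard errors, the log2 value over the normal quantile of its p-value, matched the 144 deposited ones (largest relative difference 4.27e-08).

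Kept, lost and gained genes were taken at an absolute log2 above 2. The class assignment step was run on simulated tables (200 of 200 genes recovered). How often real genes near the p-value limit fall in the wrong class was not tested. Named genes were the largest values or differences per class and list, unnamed gene models passed over; some genes the rule selects are not reported here. Members, lists and rule were chosen with earlier results of these data known. Promoter windows of 250 bases came from the mm9 genome and GENCODE annotation, not RefSeq, whose build differs. Scripts ran on Python 3.11.15 with scipy 1.17.1 and pandas 2.3.3, and figures were drawn with matplotlib 3.10.9. The alternatives were a p-value limit of 0.001 in both tables or in the WT table only, an absolute log2 of at least 5, leaving out genes listed in ethanol at day 10, centring the differences, and leaving out gene models, retrocopies and doubled symbols.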

Additional observations from a re-analysis of the deposited data

How the results depend on the processing

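The p-value limit had the largest effect. With 0.001 in both tables, 35 up-regulated genes were kept, 59 lost and 57 gained, the kept share of WT genes was 37.2%, the median difference of kept up-regulated genes turned from -0.23 to 0.28 and 45.7% of them were lower in Rara(-/-) cells. On the down-regulated side 28 were then kept, 7 lost and 24 gained. With 0.001 in the WT table only, 76 up-regulated genes were kept and 18 lost (80.9% kept), and 75.0% of the kept ones were lower in Rara(-/-) cells. Down-regulated genes then gave 35 kept and 0 lost (100% kept). The second setting holds the WT list to a stricter limit than the Rara(-/-) list, which by construction raises the kept share and selects high WT values. At an absolute log2 of at least 5, 45 down-regulated genes were gained in place of 71. Leaving out genes listed in ethanol at day 10, leaving out uncertain gene names and centring the differences moved no overall class count by over 1.5 times. These settings moved no median across 0. Among proneural factors, leaving out genes listed in ethanol changed the kept share from 38.9% (7 of 18) to 28.6% (4 of 14). The share of synaptic WT genes kept ranged from 12.5% (1 of 8) to 75.0% (6 of 8) over the p-value limits, and that of proneural factors from 0% (0 of 4) to 50.0% (2 of 4). Hox genes and mesenchymal factors stayed at 100% in all settings run, on as few as 3 and 2 genes. No paired analysis was possible because each condition is 1 library and the result comes from no test.

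A gene absent from a table has no value there, so differences exist only for the 330 kept genes, which both tables selected for size. With 1 library per condition, the spread between cultures is unknown. A fold change against a reference near 0 reads depends on how the fit treats low counts and is no bound, and reference counts were not analysed here.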

Other observations

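Of clade B serpins, 4 were listed in the Rara(-/-) table with ATRA and 0 in the WT one, a family chosen after its values were seen: Serpinb7 (8.56), Serpinb8 (7.30), Serpinb10 (6.92) and Serpinb9 (6.89). With ATRA in Rarg(-/-) cells the same 4 were listed at 10.57, 6.76, 9.45 and 7.59. Serpinb7, Serpinb8 and Serpinb10 lie on chromosome 1 of mm9 between 109296232 and 109505486, and the annotation names the Serpinb10 locus as a polymorphic pseudogene. Serpinb9 was also listed in WT ethanol cells at day 10, at 7.0, Serpinb7 in WT cells with BMS753, at 6.86, and Serpinb10 with ATRA in Rarb(-/-) cells, at 7.81.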
